A study of Mus musculus with 4 samples.

Results

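Core genes of hepatic lipogenesis, the synthesis of fatty acids from carbohydrate carbon, were followed in mouse liver. The genes were 5 enzymes (Acly, Acaca, Acacb, Fasn and Me1), the glycolytic enzyme gene Pklr, the transcription factor genes Srebf1 and Mlxipl, and Thrsp and Pnpla3, which are targets of those factors. They were taken as a list of named genes, put together with earlier results of these data known, so the counts below do not come from an unseen list. All probe sets of the array whose annotation gave 1 symbol equal to one of these 10 names were used, which gave 22 probe sets out of 45101. The array named 18194 genes in all.

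Male C57BL/6J mice, between 8 and 12 weeks old at the start, were fed for 20 weeks. Fat gave 45% of the energy of the high-fat diet and 10% of that of the low-fat diet, with palm oil in place of lard. During the final week the mice received intraperitoneal injections of clodronate liposomes, a treatment that depletes phagocytic cells such as Kupffer cells, or of phosphate-buffered saline (PBS). The 4 groups were the high-fat clodronate, high-fat PBS, low-fat clodronate and low-fat PBS mice. RNA of 10 mice per high-fat group and of 8 mice per low-fat group was pooled, and each pool was measured on 1 Affymetrix array. The spread between mice was therefore not measured. The PBS controls received no empty liposomes, so the liposome, the drug in it and the loss of macrophages cannot be told apart.

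In lipogenesis, ATP-citrate lyase (Acly) makes cytosolic acetyl-CoA from citrate, the acetyl-CoA carboxylases (Acaca, Acacb) turn it into malonyl-CoA, and fatty acid synthase (Fasn) builds palmitate, with NADPH that malic enzyme (Me1) helps to supply. Insulin drives the pathway through SREBP-1c, a product of Srebf1, and glucose through ChREBP, the product of Mlxipl, for which the liver pyruvate kinase gene Pklr is the classical target. Hepatocytes carry the pathway, which is known to be low when the diet supplies fat and high when it supplies carbohydrate.

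The promoters of 4 members show the control regions of members that moved apart in the data: those of Acacb and Fasn, whose transcripts fell on the high-fat diet, and those of Thrsp and Mlxipl, whose transcripts did not pass the test. The sequences are from RefSeq (GRCm38.p6), run from 250 bases before to 50 after the annotated start, and all 10 members matched, with 15 such windows of 300 bases. Capitals mark CCAAT boxes (CCAAT, or ATTGG where the box lies on the other strand), which NF-Y, a partner of SREBP, binds, and E-boxes of the form CACGTG, the half-site of the carbohydrate response element.
Acacb (chr5:114165268-114165567, plus strand): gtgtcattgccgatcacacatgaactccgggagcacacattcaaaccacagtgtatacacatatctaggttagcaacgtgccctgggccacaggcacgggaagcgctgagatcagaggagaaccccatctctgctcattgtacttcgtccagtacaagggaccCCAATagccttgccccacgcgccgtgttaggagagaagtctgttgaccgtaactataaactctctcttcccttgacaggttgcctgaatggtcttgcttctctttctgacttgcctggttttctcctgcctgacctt
Fasn (chr11:120824498-120824797, minus strand): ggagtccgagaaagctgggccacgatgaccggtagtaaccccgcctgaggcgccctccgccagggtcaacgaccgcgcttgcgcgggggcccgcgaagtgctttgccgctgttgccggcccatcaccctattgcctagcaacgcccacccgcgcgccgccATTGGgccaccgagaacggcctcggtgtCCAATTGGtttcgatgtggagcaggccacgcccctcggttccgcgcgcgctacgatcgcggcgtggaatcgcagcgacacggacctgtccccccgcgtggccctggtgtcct
Thrsp (chr7:97417501-97417800, minus strand): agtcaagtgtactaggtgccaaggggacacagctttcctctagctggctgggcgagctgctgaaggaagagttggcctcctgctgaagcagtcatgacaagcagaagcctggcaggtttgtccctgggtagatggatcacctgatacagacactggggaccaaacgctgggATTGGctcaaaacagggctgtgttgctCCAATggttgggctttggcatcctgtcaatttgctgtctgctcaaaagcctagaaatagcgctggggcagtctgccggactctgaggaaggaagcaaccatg
Mlxipl (chr5:135089640-135089939, plus strand): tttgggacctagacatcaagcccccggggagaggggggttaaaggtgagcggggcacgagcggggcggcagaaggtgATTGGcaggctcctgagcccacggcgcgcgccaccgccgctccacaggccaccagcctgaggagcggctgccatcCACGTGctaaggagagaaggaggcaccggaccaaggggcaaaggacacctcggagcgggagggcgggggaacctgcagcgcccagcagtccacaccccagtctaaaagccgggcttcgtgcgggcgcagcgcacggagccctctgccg

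The Fasn window held 3 CCAAT boxes, 2 of them overlapping, and the Thrsp window held 2. A CCAAT box was found on either strand in 10 of the 15 windows, against 37.4% of 32851 mouse promoter windows of the same length. Of the 10 genes, all but Acaca had at least 1 window with it. CACGTG was found in 1 window, that of Mlxipl printed above, against 7.15% of all windows. The sterol response element TCACNCCAC was found in 1 window, at the other annotated start of Mlxipl, against 1.24% of all windows, and the GC box GGGCGG in 6 of the 15 windows, against 35.7% of all windows. CCAAT boxes were thus present both in members that fell and in members that did not. These are matches of letters, not binding sites.

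The values are log2 expression values as the authors deposited them, and a value under 4 was taken as not measurable. Between 33.5% and 34.5% of all probe sets were at 4 or more on each array, and 16298 probe sets were at 4 or more on at least 1 array. Of the 22 lipogenesis probe sets, 18 passed this filter and represented all 10 genes, and 17 were at 4 or more on all 4 arrays. The other 4 probe sets, 3 of Acly and 1 of Acacb, were below 4 on every array, at 2.04 to 3.01 for Acly and 1.96 to 2.27 for Acacb, and were not tested. Hepatocyte markers other than Ass1 were high on every array, with Alb at 14.50 to 14.54. Ass1 was at 5.05 to 5.56, and all 9 measured markers were at 4 or more. Adipocytes also carry lipogenesis, and all 4 measured adipocyte markers, among them Adipoq, were below 4 on every array, at most at 2.25. Of 12 macrophage markers, 3 were at 4 or more in the high-fat clodronate pool and 10 in the high-fat PBS pool, and 2 in the low-fat clodronate pool and 12 in the low-fat PBS pool.

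**Figure D1:**
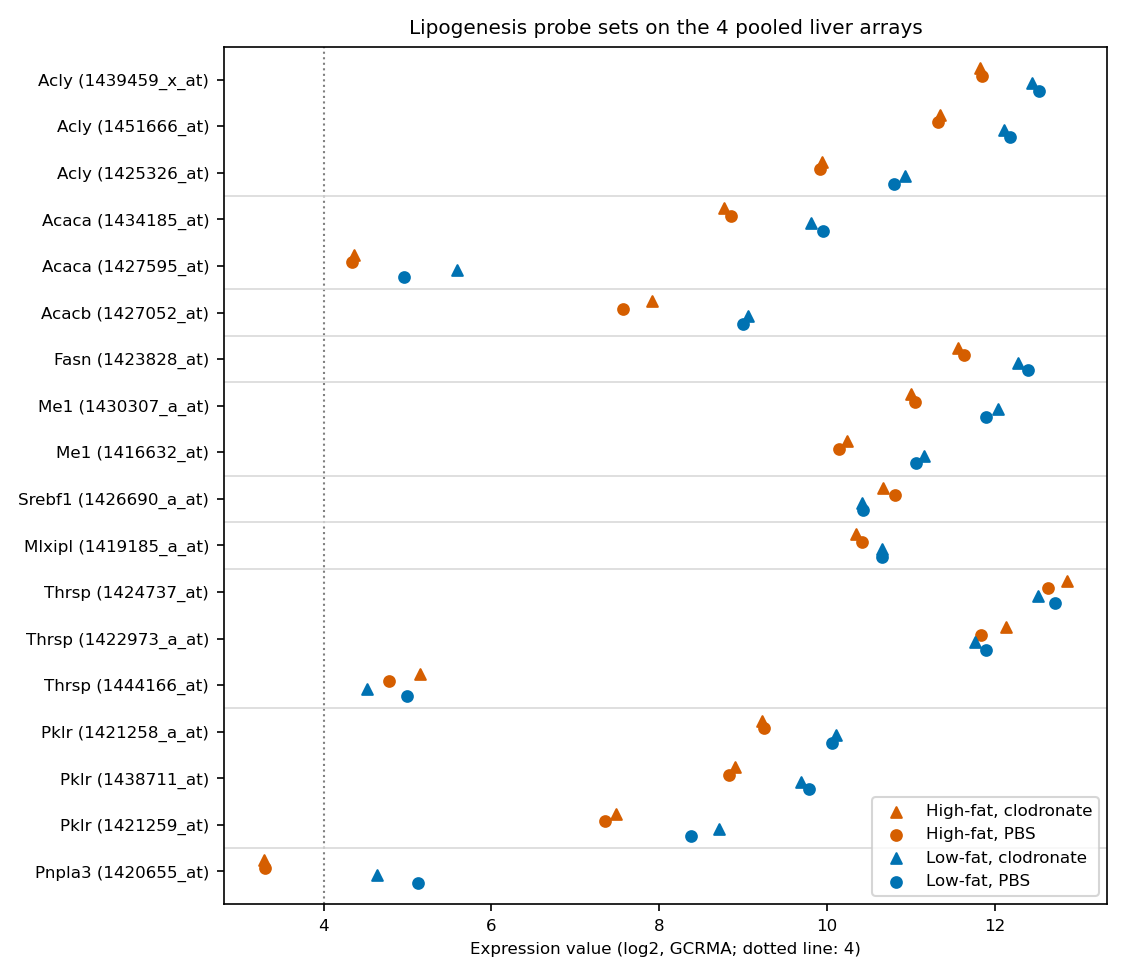
Expression values (log2, horizontal axis) of the 18 lipogenesis probe sets at 4 or more on at least 1 array, 1 row each, with 1 symbol per pooled array. High-fat arrays (orange) lie below low-fat arrays (blue) in 14 rows, Srebf1 lies the other way, and the Thrsp arrays overlap.

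Transcripts of the enzymes of fatty acid synthesis and of pyruvate kinase were lower on the high-fat diet, with either injection. Averaged over both injections, 11 of the 18 probe sets fell and 0 rose (limma, Benjamini-Hochberg adjusted over 16298 probe sets), against 0.178% of all tested probe sets that fell and 0.147% that rose. At an unadjusted p under 0.05 (limma), 14 were lower, against 6.33% of all, and 1 was higher, against 4.4% of all, which is near the background. The 14 include Pnpla3, whose high-fat values were below 4 and whose fitted difference is not read as a test. After quantile normalization 86 probe sets of the whole table fell and 120 rose, against 29 and 24 on the deposited values. There 12 lipogenesis probe sets fell, with Pnpla3 among them. The 11 belonged to Acly, Acaca, Acacb, Fasn, Me1 and Pklr, and their falls lay between 1.57-fold and 2.45-fold. Both high-fat arrays were below both low-fat arrays in 14 of the 18 probe sets, against 29.5% of all tested probe sets. Among these is Pnpla3, which passed the filter only through its low-fat arrays, so that its order was fixed. Among the 17 measured on all arrays it was 13, against 29.6% of 14472 such probe sets, and their median diet difference was -0.85 (log2), against -0.04. Summed markers of endothelial and stellate cells differed little. On the log2 scale, those of endothelial cells were 10.60 and 10.63 in the high-fat clodronate and PBS pools, against 10.74 and 10.67 in the low-fat clodronate and PBS pools. Those of stellate cells were 11.24 and 11.25 in the high-fat clodronate and PBS pools, against 11.44 and 11.34 in the low-fat clodronate and PBS pools. Of the 5 stellate cell markers, 3 were at 4 or more on each array. Summed markers of cholangiocytes lay between 5.21 and 5.41, but at most 1 of the 4 was at 4 or more on any array. That sum is therefore too dim to read. The part of these other liver cells in the diet differences was not tested. In these bulk pools fewer cells of a type and less RNA per cell cannot be told apart. All 11 calls ended when the variance prior of limma did not depend on the mean, with adjusted p between 0.415 and 0.472. In that fit there were 0 calls in the whole table. There 13 of the 18 probe sets, Pnpla3 among them, had an unadjusted p under 0.05 (limma), against 9.23% of all. The 11 calls also ended when no filter on dim probe sets was set.

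Acly, the first enzyme of the pathway, was measured by 3 detected probe sets that moved together. The probe set 1451666_at was at 11.34 in the high-fat clodronate pool and 11.32 in the high-fat PBS pool, against 12.11 in the low-fat clodronate pool and 12.18 in the low-fat PBS pool. The groups of arrays did not overlap by diet, and the 2 arrays of a diet lay close to each other. It fell by 0.81 ± 0.06 on the log2 scale (SD of the differences with each injection, n = 2; limma, Benjamini-Hochberg adjusted p = 0.0167). The other detected probe sets, 1425326_at and 1439459_x_at, fell by 0.94 ± 0.08 and 0.65 ± 0.04 (limma, Benjamini-Hochberg adjusted p = 0.0167 and 0.0286). The smallest fall was that of the x_at probe set, a class whose probes can also match other transcripts. It was also the brightest of the 3, and the reason for its smaller fall was not tested.

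Acacb showed the largest fall among the called probe sets, and 1 of the 2 detected probe sets of Acaca, the other acetyl-CoA carboxylase, fell. Acacb, the mitochondria-associated isoform whose malonyl-CoA restrains fatty acid import by Cpt1, was at 7.91 in the high-fat clodronate pool and 7.56 in the high-fat PBS pool, against 9.06 in the low-fat clodronate pool and 9.00 in the low-fat PBS pool. It fell by 1.29 ± 0.21 (SD, n = 2; limma, Benjamini-Hochberg adjusted p = 0.0272), a 2.45-fold fall. The high-fat PBS pool was the lowest of the 4, so the diet difference was -1.15 with clodronate and -1.44 with PBS. Acaca, the cytosolic isoform that feeds fatty acid synthesis, was at 8.77 and 8.86 in the high-fat clodronate and PBS pools, against 9.81 and 9.95 in the low-fat clodronate and PBS pools. It fell by 1.07 ± 0.04 (SD, n = 2; limma, Benjamini-Hochberg adjusted p = 0.0167). A dimmer Acaca probe set, 1427595_at, was at 4.36 and 4.34 in the high-fat clodronate and PBS pools, against 5.59 and 4.96 in the low-fat clodronate and PBS pools. It had the same direction but did not pass, with a mean difference of -0.92 ± 0.44 (SD, n = 2; limma, Benjamini-Hochberg adjusted p = 0.263). Most of its spread came from the low-fat arrays, which differed by 0.64.

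Fasn was at 11.56 in the high-fat clodronate pool and 11.63 in the high-fat PBS pool, against 12.27 in the low-fat clodronate pool and 12.40 in the low-fat PBS pool. It fell by 0.74 ± 0.04 (SD, n = 2; limma, Benjamini-Hochberg adjusted p = 0.0175), which is 1.67-fold. Fasn was thus lower on the high-fat diet by similar amounts with clodronate (-0.71) and with PBS (-0.77). Me1, the cytosolic malic enzyme, had 2 probe sets that gave nearly the same difference. The brighter, 1430307_a_at, was at 10.99 and 11.05 in the high-fat clodronate and PBS pools, against 12.03 and 11.89 in the low-fat clodronate and PBS pools. It fell by 0.94 ± 0.14, and 1416632_at fell by 0.92 ± 0.0009 (SD, n = 2; limma, Benjamini-Hochberg adjusted p = 0.0167 for both). An SD of 2 differences is itself uncertain, and the test draws its spread from all probe sets as well.

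Pklr encodes the pyruvate kinase of liver, the last step of glycolysis, and all 3 of its probe sets fell. The probe set 1421258_a_at was at 9.22 in the high-fat clodronate pool and 9.24 in the high-fat PBS pool, against 10.10 in the low-fat clodronate pool and 10.06 in the low-fat PBS pool. It fell by 0.85 ± 0.04, 1438711_at by 0.86 ± 0.11 and 1421259_at by 1.13 ± 0.15 (SD, n = 2; limma, Benjamini-Hochberg adjusted p = 0.0298, 0.0392 and 0.0363). The diet groups did not overlap in any of the 3. With injection left out of the model, 1421259_at did not pass (limma, Benjamini-Hochberg adjusted p = 0.0514).

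Pnpla3, a lipid droplet lipase and target of SREBP-1c, was measurable only on the low-fat diet. It was at 3.29 and 3.30 in the high-fat clodronate and PBS pools, both too dim to measure, against 4.64 and 5.13 in the low-fat clodronate and PBS pools. With the floor of 4, it was therefore at least 1.56-fold lower on the high-fat diet with clodronate and at least 2.19-fold lower with PBS. With values below 5 set to 5, the difference with clodronate was 0, so that bound depends on the floor. Because Pnpla3 passed the filter only through the low-fat pools and its high-fat values are below the measurable range, its fitted difference is not read as a test here. That difference did not pass (-1.59 ± 0.34, SD, n = 2; limma, Benjamini-Hochberg adjusted p = 0.0761), and with values below 4 set to 4 the adjusted p was 0.236 (limma; between 2.91e-07 and 0.415 over the alternatives).

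**Figure D2:**
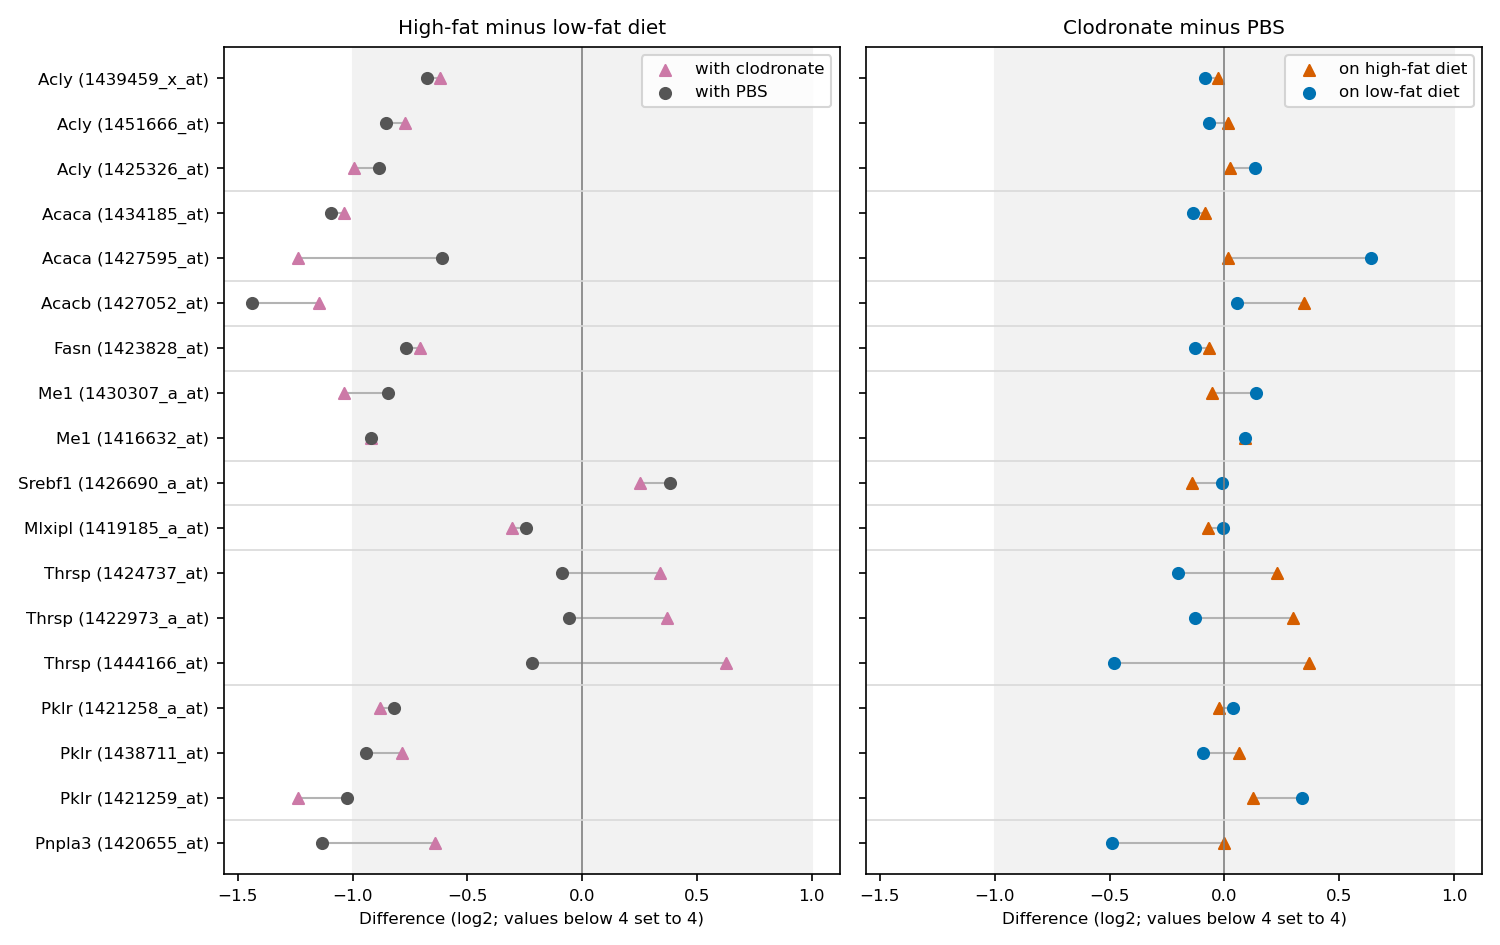
Differences (log2, values below 4 set to 4) of the 18 probe sets, for high-fat minus low-fat diet with clodronate or PBS (left) and for clodronate minus PBS on each diet (right). Grey shading spans differences under 2-fold. The diet differences lie between -1.44 and 0.63, the clodronate differences between -0.49 and 0.64.

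Neither transcription factor gene passed the test, and their diet differences had opposite signs. Srebf1 was at 10.67 in the high-fat clodronate pool and 10.81 in the high-fat PBS pool, against 10.41 in the low-fat clodronate pool and 10.42 in the low-fat PBS pool. Both high-fat arrays were above both low-fat arrays, which made Srebf1 the single member with this order, against 15.2% of all tested probe sets. The mean difference was 0.32 ± 0.09 and did not pass (SD, n = 2; limma, Benjamini-Hochberg adjusted p = 0.254, unadjusted p = 0.0063). The probe set matches several transcripts of the gene, so SREBP-1a and SREBP-1c are not told apart, and the array does not see the cleavage that activates the protein. Mlxipl was at 10.34 and 10.42 in the high-fat clodronate and PBS pools, against 10.65 and 10.66 in the low-fat clodronate and PBS pools. Its mean difference of -0.28 ± 0.05 had the enzymes' direction, was smaller than that of each enzyme probe set and did not pass (SD, n = 2; limma, Benjamini-Hochberg adjusted p = 0.295, unadjusted p = 0.00977). Mlxipl has more than 1 annotated start, and its single probe set gives no separate value for each. The activity of its protein was not measured.

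Thrsp, also known as Spot 14, encodes a small acidic protein that promotes lipogenesis and is a well-known target of thyroid hormone and carbohydrate. None of its 3 detected probe sets was called for diet (limma, Benjamini-Hochberg adjusted p between 0.652 and 0.831), and their mean differences were 0.12 ± 0.30, 0.16 ± 0.30 and 0.20 ± 0.60 (SD, n = 2). The brightest, 1424737_at, was at 12.85 in the high-fat clodronate pool and 12.63 in the high-fat PBS pool, against 12.52 in the low-fat clodronate pool and 12.72 in the low-fat PBS pool. The arrays of the diets overlapped, with the high-fat clodronate pool highest and the low-fat clodronate pool lowest. The same order of these extremes was seen in 1422973_a_at, which ranged from 11.76 to 12.13, and in the dim 1444166_at, which ranged from 4.51 to 5.14.

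**Figure D3:**
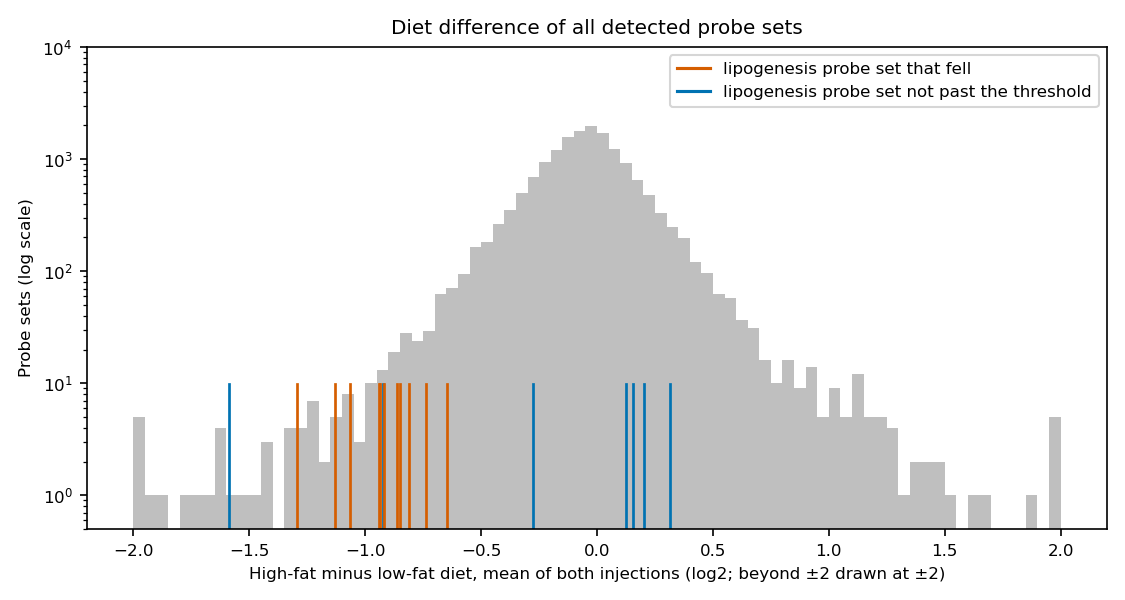
Mean high-fat minus low-fat difference (log2, horizontal axis) of all 16298 tested probe sets as a histogram with a logarithmic count axis. Vertical lines mark the 18 lipogenesis probe sets, of which the 11 that fell (orange) lie between -1.29 and -0.65.

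The tested diet difference is the mean of the differences in the 2 single pairs of arrays, so the pairs add no separate evidence. They are described without a test, since each pair compares 2 pools. With clodronate, 5 of the 18 probe sets were 2-fold or more lower on the high-fat diet, against 0.853% of all tested probe sets. With PBS it was 4 of 18, against 0.27%, of which 1, Pnpla3, was a bound against dim values. In neither pair was a lipogenesis probe set 2-fold or more higher. Over the 17 probe sets measured on all arrays the median was -0.78 with clodronate, against -0.09 for all such probe sets, and -0.82 with PBS, against 0.00. After quantile normalization of the arrays 3 probe sets were 2-fold or more lower with clodronate.

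No clodronate difference of the lipogenesis genes passed the test. Averaged over the diets, 0 of the 18 probe sets were called, against 0.454% of all tested probe sets called in either direction (limma with Benjamini-Hochberg adjustment). At an unadjusted p under 0.05 there were 0 of 18, against 3.82% of all, and 0 of 18 without the mean-dependent prior, against 4.6% of all (limma). The mean differences lay between -0.25 (Pnpla3) and 0.33 (Acaca 1427595_at), with a median of 0.00. Differences of 2-fold or more were found in 0 of 18 probe sets on the high-fat and on the low-fat diet, against 0.767% of all tested probe sets in each. With shares this low over all probe sets, counts of 0 among 18 are near the background and show nothing particular to the lipogenesis genes. The same pools differed strongly in macrophage transcripts: Clec4f, a lectin of Kupffer cells, was at 1.88 in the high-fat clodronate pool and 9.42 in the high-fat PBS pool, and at 1.92 in the low-fat clodronate pool and 9.40 in the low-fat PBS pool. Hepatocyte markers did not move with the injection in this way, and their summed level was between 16.84 and 16.89 (log2) on the 4 arrays. A p that misses the threshold does not show that levels were equal, and smaller effects than the spread between these arrays were not measurable.

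On single diets, clodronate differences ran from -0.49 (Pnpla3) to 0.64 (the dim Acaca probe set). Acacb was higher by 0.35 with clodronate on the high-fat diet (7.91 with clodronate, 7.56 with PBS) and by 0.05 on the low-fat diet (9.06 with clodronate, 9.00 with PBS). Pnpla3 differed by -0.49 on the low-fat diet, at 4.64 with clodronate against 5.13 with PBS, and could not be compared between the high-fat pools, where both values were below 4. The dim Acaca probe set was higher by 0.64 with clodronate on the low-fat diet, while the bright one, 1434185_at, differed by -0.14 there. The 2 Acaca probe sets thus disagreed in sign for this pair. Pklr 1421259_at was higher by 0.34 with clodronate on the low-fat diet (8.72 with clodronate, 8.38 with PBS) and by 0.12 on the high-fat diet, and the other Pklr probe sets differed by at most 0.09 in size on either diet. Fasn differed by -0.07 on the high-fat diet and -0.13 on the low-fat diet.

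All 3 Thrsp probe sets had clodronate differences of opposite sign on the 2 diets, as had 7 of the 17 lipogenesis probe sets measured on all arrays, against 55% of all such probe sets. On the high-fat diet they were higher with clodronate, by 0.23 for 1424737_at, 0.30 for 1422973_a_at and 0.37 for 1444166_at. On the low-fat diet they were lower with clodronate, with differences of -0.20, -0.13 and -0.48 (log2). The difference between the diets was 0.43, 0.43 and 0.85, and with 1 array per group it could not be tested. Probe sets of 1 gene share the RNA and are not replicates. Over the 18 lipogenesis probe sets, 0 had a difference between the diets of 2-fold or more, against 1.79% of all tested probe sets. Under quantile normalization 1444166_at reached 1.01, and with values below 5 set to 5 it was 0.14.

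**Figure D4:**
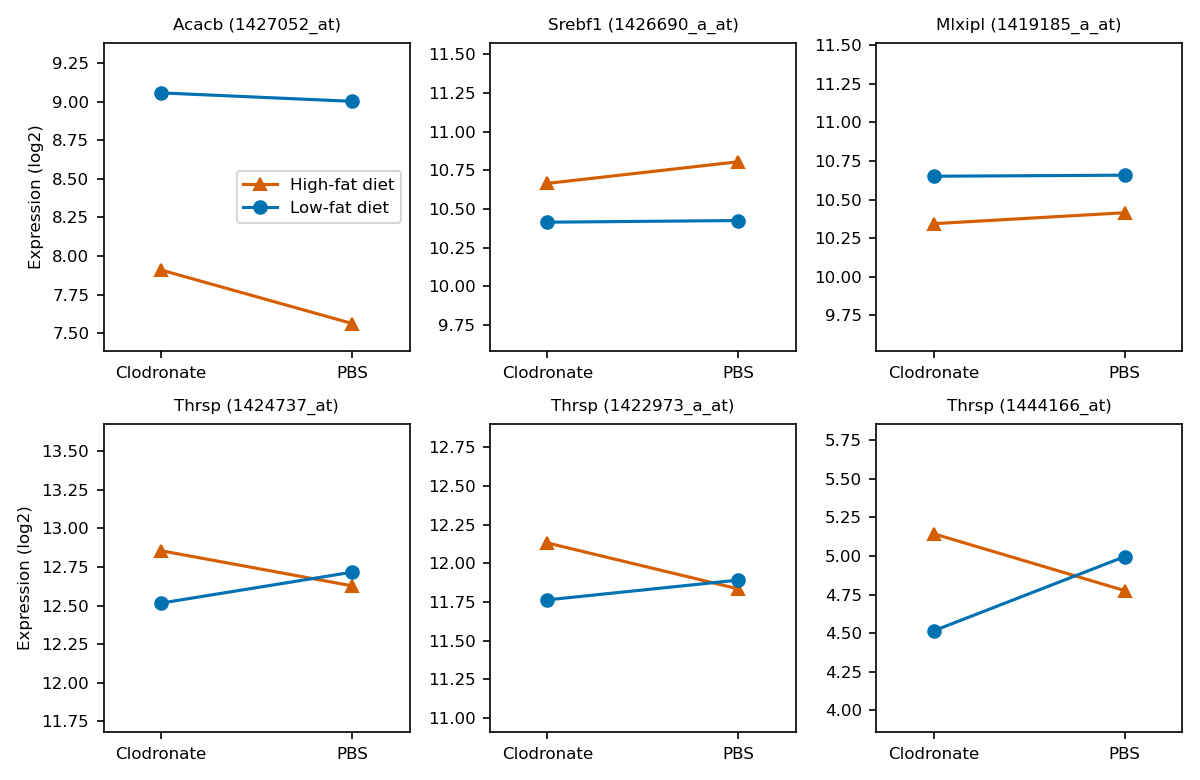
Expression (log2, each panel spans 2 units) with clodronate and with PBS, on the high-fat diet (orange triangles) and the low-fat diet (blue circles), for Acacb, Srebf1, Mlxipl and the 3 Thrsp probe sets, 1 pooled array per point. The diet lines cross in the Thrsp panels and stay apart in the others.

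Neighbouring genes of the pathway were described by 6 lists, with 1 probe set per gene. Of 63 detected genes, 3 fell on the high-fat diet, 0 rose and 0 were called for clodronate (limma with Benjamini-Hochberg adjustment over all 16298 probe sets). At an unadjusted p under 0.05, 15 of the 63 were lower and 4 higher with diet, against 6.33% and 4.4% of all tested probe sets, and 2 differed with clodronate, against 3.82% of all. The counts of 4 and 2 are near those shares. The 15 include Fgf21 and Arntl, which passed the filter only through low-fat arrays and are not read as tested. The 3 that fell were Acss2, Elovl6 and G6pc, and these calls also ended without the mean-dependent prior. Acss2, which makes acetyl-CoA from acetate, was at 11.02 and 10.90 in the high-fat clodronate and PBS pools, against 11.88 and 11.74 in the low-fat clodronate and PBS pools, and fell by 0.85 ± 0.01 (SD, n = 2; limma, Benjamini-Hochberg adjusted p = 0.0167). Elovl6, the elongase of palmitate, was at 9.69 in both high-fat pools, against 10.95 and 10.89 in the low-fat clodronate and PBS pools, and fell by 1.23 ± 0.05 (SD, n = 2; limma, Benjamini-Hochberg adjusted p = 0.015). G6pc, glucose-6-phosphatase, a gene of glucose output that ChREBP also induces, fell by 0.91 ± 0.03 (SD, n = 2; limma, Benjamini-Hochberg adjusted p = 0.0167).

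Among 11 genes of acetyl-CoA and NADPH supply, 1 fell, 3 had an unadjusted p under 0.05 (limma) and the median was -0.09, with Pgd, an enzyme of the pentose phosphate pathway, at -0.54 ± 0.03 (limma, Benjamini-Hochberg adjusted p = 0.0848), Tkt at -0.20 and Aco1 at 0.17. Among 9 further SREBP-1c targets 1 fell, 4 had an unadjusted p under 0.05 (limma) and 7 were below 0, with a median of -0.20. Scd1, stearoyl-CoA desaturase, was at 13.58 and 13.60 in the high-fat clodronate and PBS pools, against 13.93 and 13.94 in the low-fat clodronate and PBS pools, and did not pass (limma, Benjamini-Hochberg adjusted p = 0.09). Acsl5 and Aacs differed by -0.25 and -0.26. These differences were smaller than those of Acacb and Elovl6.

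Genes that control SREBP had a median of -0.02 with 0 of 14 called and 3 at an unadjusted p under 0.05 (limma). Ppargc1b, a coactivator of SREBP-1, had the largest difference of that list, 0.89 ± 0.28, at 6.60 and 6.18 in the high-fat clodronate and PBS pools, against 5.51 and 5.49 in the low-fat clodronate and PBS pools (SD, n = 2; limma, Benjamini-Hochberg adjusted p = 0.19). It had the direction of Srebf1, not of the enzymes. Scap, which escorts SREBP to the Golgi, differed by -0.34, Insig2 by -0.26 and Srebf2 by -0.22. Among 11 carbohydrate-response genes 1 fell, 6 had an unadjusted p under 0.05 (limma) and the median was -0.06. The 6 include Fgf21 and Arntl, whose high-fat values were all below 4 and which passed the filter only through low-fat arrays. Tkfc differed by -0.36, Fgf21 was below 4 in both high-fat pools, against 4.59 and 5.14 in the low-fat clodronate and PBS pools, and Arntl was at 4 or more only in the low-fat PBS pool, at 4.32.

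The list on control of acetyl-CoA carboxylase had a median of -0.05 with 0 of 10 called and 1 at an unadjusted p under 0.05 (limma). The subunits of AMP-activated protein kinase Prkaa2 and Prkab1 both differed by -0.17, Acot4, an acyl-CoA thioesterase that is not known to act on the carboxylase, by 0.36, and Trib3, which targets the carboxylase for degradation in fat tissue, by 0.81 ± 0.12 (limma, Benjamini-Hochberg adjusted p = 0.251). In the insulin list the median was -0.01, and 0 of 8 were called, with 2 at an unadjusted p under 0.05 (limma). Igfbp1, which insulin represses, was at 9.58 and 8.81 in the high-fat clodronate and PBS pools, against 10.35 and 10.28 in the low-fat clodronate and PBS pools, a mean difference of -1.12 ± 0.49 (SD, n = 2; limma, Benjamini-Hochberg adjusted p = 0.0848). Irs1, Akt1 and Pik3r1 differed by -0.22, -0.19 and 0.25.

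**Figure D5:**
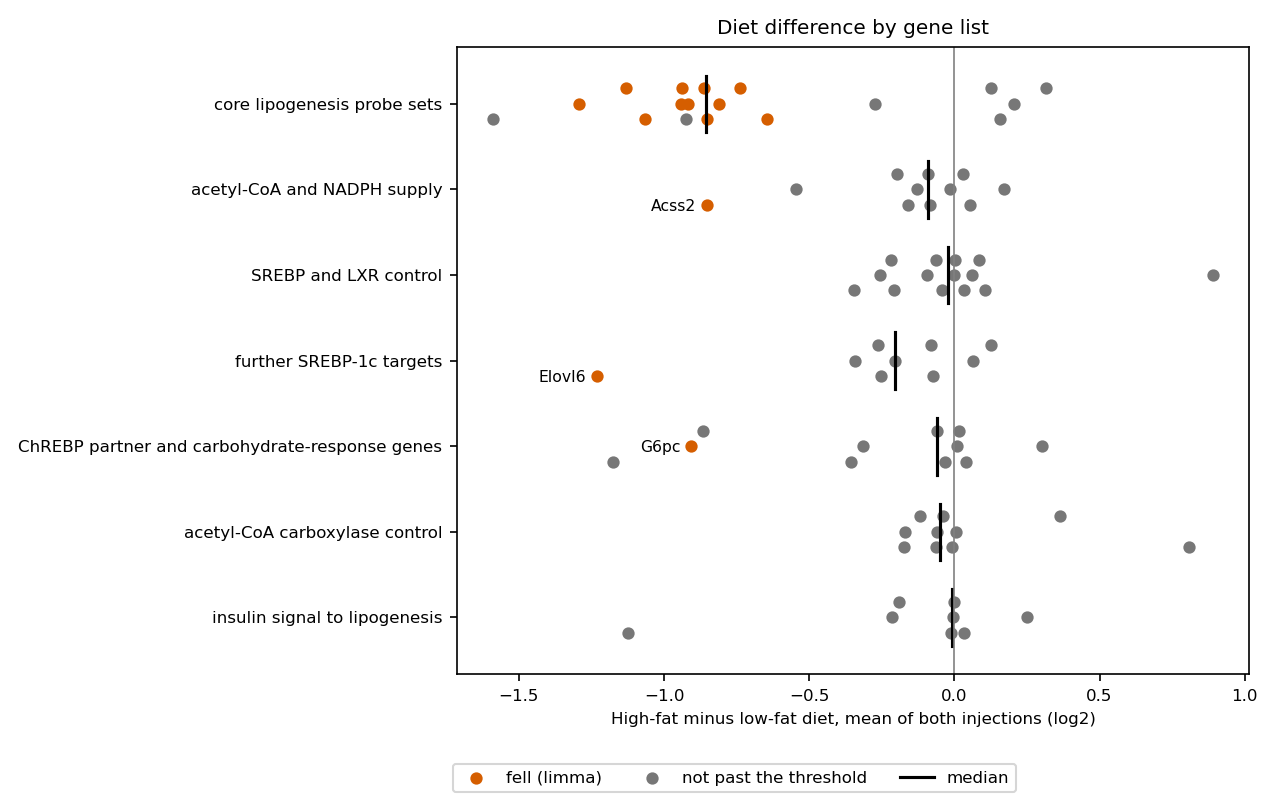
Mean high-fat minus low-fat difference (log2, horizontal axis) of the 18 lipogenesis probe sets and of 6 lists of neighbouring genes (1 probe set per gene), 1 point each, with the median as a bar. The lipogenesis median lies at -0.86 and those of the other lists between -0.20 and -0.01.

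The median pattern of the members was a step between the diets with little between the injections. Srebf1 and the Thrsp probe sets did not follow it. The median centred value of the 17 probe sets at 4 or more on all arrays was -0.40 and -0.41 in the high-fat clodronate and PBS pools, against 0.38 and 0.40 in the low-fat clodronate and PBS pools. Among them Acly 1451666_at and Pklr 1421258_a_at lay closest to it, with root mean square differences of 0.02 and 0.03 (log2) over the 4 arrays, and Srebf1 and Thrsp 1444166_at farthest, with 0.56 and 0.54. The median was taken over these same probe sets, so closeness of a member to it is partly built in. Among 7876 other genes outside the lists, the 5 nearest were Ddb2, Avpr1a, Atxn1l, Gstp3 and Rnd2, with root mean square differences between 0.05 and 0.09. Avpr1a, the vasopressin V1a receptor, was at 7.06 and 7.11 in the high-fat clodronate and PBS pools, against 7.95 and 7.80 in the low-fat clodronate and PBS pools. None of the 5 passed the test for diet (limma, Benjamini-Hochberg adjusted p between 0.119 and 0.282), and a likeness over 4 arrays says nothing of shared control.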

How the data were processed

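The data were 1 table of log2 expression values, which the authors deposited. The submitters' processing notes name GCRMA 2.24.1, a method that models probe background from sequence, normalizes arrays and summarises probes into probe sets. Labelling used 5 µg of RNA with an integrity number above 8.0. Of 45101 probe sets, 34958 had 1 gene symbol in the platform annotation, 932 several and 9211 none.

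Probe sets at 4 or more on at least 1 of 4 arrays (16298) were fitted with limma 3.58.1 (R 4.3.3): diet and injection as additive terms, a mean-dependent prior variance, Benjamini-Hochberg adjustment at 0.05. The model has 1 residual degree of freedom and a prior of 4.9. Its residual holds noise and the difference of the diet effect between the injections together, and so does each SD of a diet difference. The p-values cover the spread between arrays, which may be technical, not between mice. Pairs of arrays were compared without a test, values below 4 set to 4 and a difference against them a bound. The diet contrasts share arrays with the clodronate contrasts. Alternatives changed the prior, filter, floor, scaling, features and model. The members and lists were chosen with earlier results of these data known. Of the lists, the up to 4 genes with the largest diet difference and all called genes are named. Of the patterns most like the members', 5 are named. List genes without a probe set of 1 symbol were not analysed here. Python 3.11.15, numpy 2.4.6 and pandas 2.3.3 were used. The number of arrays limits the precision.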

Additional observations from a re-analysis of the deposited data

Results flagged for a closer look

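Clodronate minus PBS differences (log2) had opposite signs on the 2 diets in 7 of the 17 probe sets measured on all arrays, against 55% of all such probe sets. The count does not exceed that share and shows nothing particular to the lipogenesis genes. The Thrsp probe set 1444166_at differed by 0.37 on the high-fat diet and -0.48 on the low-fat diet, 1422973_a_at by 0.30 and -0.13, and 1424737_at by 0.23 and -0.20. The others were smaller: Acly 1451666_at differed by 0.018 on the high-fat diet and -0.07 on the low-fat diet (-0.023 on the high-fat diet after median centring, which ends the opposite signs), and Me1 1430307_a_at by -0.053 and 0.14. Pklr 1421258_a_at differed by -0.024 and 0.04, and Pklr 1438711_at by 0.064 and -0.09. With 1 array per group the difference between the diets was not tested in any of them.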

How the results depend on the processing

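The direction of the diet difference reversed in 0 member probe sets under the 9 alternatives of the model. Alternatives that change the prior, filter, features or model leave the difference itself as it is. Only the floor and the scalings could reverse it. Against 11 members that fell, 0 fell without the mean-dependent prior, 0 without a filter on dim probe sets, 6 with values below 4 set to 4, and 7 with 1 probe set per gene, where 10 were tested. The 7 include Pnpla3, which passed the filter only through its low-fat arrays. With values below 4 set to 4, 1 Acly, the Acacb and all 3 Pklr probe sets lost their calls; the cause was not tested. Between 10 and 13 fell under the others, and 0 rose under any. Pnpla3 is also in the counts with robust variances, median centring and quantile normalization.

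In the whole table, against 29 that fell and 24 that rose with diet, the numbers were 0 and 0 without the mean-dependent prior and without a filter, 56 and 50 with robust variances, 14 and 8 with values below 4 set to 4, 200 and 170 with median centring, 86 and 120 with quantile normalization, and 71 and 75 with 1 probe set per gene. Against 74 called for clodronate, 11 were called without the mean-dependent prior, 23 without a filter, 24 when all arrays had to be at 4 or more, 46 with values below 4 set to 4 and 180 with median centring. Members called for clodronate were 0 under all 9.

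With quantile normalization, 3 in place of 5 members were 2-fold or more lower on the high-fat diet with clodronate, and 1 in place of 0, Thrsp 1444166_at, had clodronate differences that were 2-fold apart on the 2 diets. No paired analysis was possible because each group has 1 array and so no replicate numbers to pair beyond the injection term that the model already holds.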
